A study of Mus musculus with 22 samples.

Results

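Granule cells of the dentate gyrus and layer V neurons of the cortex, both excitatory neurons of the mouse forebrain, were compared directly by the mRNA bound to their ribosomes. The comparison rested on 6 of the 22 libraries of the series, the 3 dentate granule cell libraries and the 3 layer V neuron libraries sequenced in batch 1. All 6 came from mice of 6 weeks that carried 1 Rpl22 Fl allele and the Rbp4-Cre transgene (genotype Rpl22 Fl/+, Rbp4-Cre), in which Cre recombination puts an HA tag on the ribosomal protein RPL22. The tissue, hippocampus for dentate granule cells and cortex for layer V neurons, was the only labelled difference between the groups. In both groups replicates 1 and 2 were labelled female and replicate 3 male. Tagged ribosomes were pulled down with anti-HA beads and their polyadenylated RNA was sequenced. The cell type thus rests on where the Rbp4-Cre transgene is active in each tissue, on the dissection, and on how clean the pull-down was, and untagged RNA carried over was not measured apart. Region and cell type cannot be told apart in this design, and fewer cells of a type cannot be told apart from less RNA per cell.

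Dentate granule cells are small, densely packed neurons that receive input from the entorhinal cortex and send mossy fibre axons to the CA3 field. They fire sparsely, and new ones are born into adult life from a niche within the dentate gyrus. Layer V pyramidal neurons are large cells whose axons leave the cortex for the brainstem, the spinal cord, the striatum or the opposite hemisphere. Prox1, a homeobox transcription factor, is the standard marker of the dentate granule cell lineage, and Bcl11b, a zinc finger transcription factor also called Ctip2, marks the layer V neurons that project below the cortex and is also known from dentate granule cells.

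Promoter sequence is shown for 4 genes that separated the types, the dentate markers Prox1 and Dsp and the layer V genes Fezf2 and Dkkl1. The sequences are the 250 bases before the RefSeq transcription start in GRCm38.p6, read 5′ to 3′ on the strand of the gene, and the capitals mark matches to the 4 motifs named below. The Prox1 window is at chr1:190170828-190171077 on the minus strand, Dsp at chr13:38151044-38151293 on the plus strand, Fezf2 at chr14:12345866-12346115 on the minus strand and Dkkl1 at chr7:45211884-45212133 on the minus strand.
Prox1: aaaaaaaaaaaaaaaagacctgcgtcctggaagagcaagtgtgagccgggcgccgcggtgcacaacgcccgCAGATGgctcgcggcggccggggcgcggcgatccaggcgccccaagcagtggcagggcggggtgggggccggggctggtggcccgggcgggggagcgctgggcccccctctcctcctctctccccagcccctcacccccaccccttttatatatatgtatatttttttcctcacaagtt
Dsp: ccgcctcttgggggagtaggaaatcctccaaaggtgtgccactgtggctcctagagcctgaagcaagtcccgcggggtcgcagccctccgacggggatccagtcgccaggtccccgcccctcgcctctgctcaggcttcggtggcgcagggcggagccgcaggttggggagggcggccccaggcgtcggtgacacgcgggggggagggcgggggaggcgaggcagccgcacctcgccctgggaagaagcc
Fezf2: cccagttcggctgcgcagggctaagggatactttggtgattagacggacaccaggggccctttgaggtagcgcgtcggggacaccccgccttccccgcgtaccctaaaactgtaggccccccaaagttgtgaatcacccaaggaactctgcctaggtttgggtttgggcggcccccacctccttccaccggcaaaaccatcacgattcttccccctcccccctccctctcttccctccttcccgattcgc
Dkkl1: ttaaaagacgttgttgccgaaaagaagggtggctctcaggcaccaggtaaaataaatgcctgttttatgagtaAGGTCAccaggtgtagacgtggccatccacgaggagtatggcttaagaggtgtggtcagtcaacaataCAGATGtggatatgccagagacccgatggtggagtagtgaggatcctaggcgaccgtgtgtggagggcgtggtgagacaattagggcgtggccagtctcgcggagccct
The motifs searched on both strands were CAGATG, the E-box form bound by NeuroD factors, AGGTCA, the nuclear receptor half-site that ROR factors bind, CTTTGAA, a form of the TCF/LEF site, and TGACGTCA, the cyclic AMP response element. None of the 4 contains another. Prox1 held 1 CAGATG (a second annotated start of Prox1 had none of the 4), Dkkl1 held 1 CAGATG and 1 AGGTCA, and neither Dsp nor Fezf2 held any of the 4 in this window. Over all 32851 promoters of the table, CAGATG was in 14.4%, AGGTCA in 14.0%, CTTTGAA in 4.46% and TGACGTCA in 1.55%, and over the 15867 promoters of tested genes in 10.8%, 10.9%, 3.19% and 2.38%. Among the 2069 promoters of genes 2-fold or more toward dentate granule cells the shares, in the same order, were 12.2%, 10.9%, 2.66% and 1.26%, and among the 2265 promoters of genes 2-fold or more toward layer V neurons they were 12.9%, 13.1%, 3.62% and 1.72%. The table held a promoter for 19 of the 20 dentate granule cell markers and 15 of the 20 layer V markers used below.

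The libraries held between 38270477 and 65977155 estimated counts each, 54630381, 38270477 and 52052330 in dentate granule cells and 54633071, 65977155 and 53999691 in layer V neurons. Counts were summed per gene and compared with edgeR's quasi-likelihood test, and a gene was called at a Benjamini-Hochberg adjusted p of at most 0.05. Levels are given as CPM, counts relative to the size of the library, scaled by TMM normalization, and fold changes on the log2 scale are dentate granule cells minus layer V neurons, so that positive values are higher in dentate granule cells. Summed levels of a list are CPM of the whole library without TMM scaling. Levels of different genes are compared in kallisto's TPM, a unit like CPM that also divides by transcript length but is not TMM-scaled, so a ratio of TPM can differ from the fold change. Gene positions are those of GENCODE M21 on GRCm38. Of 17423 genes tested, 6195 were higher in dentate granule cells (35.6%) and 6278 were higher in layer V neurons (36.0%). At least a 2-fold difference was estimated for 2321 (13.3%) and 2550 (14.6%) of them. The libraries of the types did not overlap for 13240 genes (76.0%). With 71.6% of all genes called, a call by itself distinguishes little, and the size of a difference is given throughout. Counts called in the gene lists below are to be read against the 35.6% and 36.0% of all tested genes. The median log2 fold change over all tested genes was 0.0028. Across genes, log2 CPM of 2 libraries of the same type had r between 0.989 and 0.9947, and of 2 libraries of different types between 0.9159 and 0.9319, genes not being independent replicates. The first principal component separated the types and held 86.8% of the variance. The dentate granule cell libraries were more spread than the layer V libraries on the second (5.3%), with replicate 2 at -37.89 and replicate 3 at 28.36, against -4.72 to 2.38 in layer V neurons. The study's methods call the replicates biological, and replicate 3 of each type differed in labelled sex from replicates 1 and 2. Whether the libraries of the 2 types came from the same mice was not given in the sources used here.

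Dentate granule cell markers were higher in the dentate libraries in 20 of 20 cases, each at least 2-fold, against 13.3% of all tested genes, with a median log2 fold change of 4.05. The list was written with earlier results of these data known and is a description of the cells, not a test of them. Prox1, at chr1:190118035-190170714, had 600.3, 575 and 496 CPM in the 3 dentate granule cell libraries and 1.91, 1.28 and 2.33 CPM in the 3 layer V libraries (log2 fold change 8.26, SE 0.18, adjusted p = 1.1e-08). The highest layer V library was thus far below the lowest dentate library. Dsp, which encodes the desmosomal linker desmoplakin at chr13:38151294-38198577, had 373, 343 and 341 CPM against 0.446, 0.106 and 0.728 CPM (log2 fold change 9.75, or 10.38 without layer V replicate 3). Lct, the gene of lactase, had 241, 224 and 213 CPM against 1.58, 1.70 and 1.75 CPM (7.07). C1ql2, a secreted synaptic organizer of mossy fibre synapses, had 581, 534 and 478 CPM against 10.6, 17.5 and 15.2 CPM (5.20). For none of these 4 genes did the groups overlap. Smaller differences within the list belonged to genes that layer V neurons also carried. Calb1, the calcium buffer calbindin, averaged 496 ± 32.1 CPM against 101 ± 3.12 CPM (SD, n = 3 each), and C1ql3, a relative of C1ql2, averaged 599 ± 21.3 CPM against 276 ± 8.74 CPM. The other members lay between the log2 fold change of 1.92 of Pdzd2 and that of 6.71 of Il16, the gene of the cytokine interleukin 16. They included the transcription factors Rfx3 (3.09) and Glis3 (5.24), the Notch coactivator Maml2 (5.84), the bicarbonate transporter Slc4a4 (4.47), the guanine nucleotide exchange factor Dock10 (5.03), the tryptophan-degrading enzyme Tdo2 (5.10), the cation channel Trpc6 (3.63), the kinase family member Plk5 (3.03), and Npnt (2.00), Stxbp6 (2.26), Fam163b (2.03) and Pitpnm2 (2.31).

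The layer V list was mixed, with 14 of 20 genes higher in layer V neurons, 5 higher in dentate granule cells and 1 not called, and a median log2 fold change of -1.32. Bcl11b, at chr12:107910403-108003602, was higher in dentate granule cells, with 540.1, 520.1 and 459 CPM in the 3 dentate granule cell libraries and 161, 153 and 156 CPM in the 3 layer V libraries (log2 fold change 1.69, SE 0.063, adjusted p = 1.3e-07). The groups did not overlap, so Bcl11b separated the types in the direction opposite to its use as a layer V marker. Foxo1, a forkhead factor downstream of insulin signalling, was also higher in dentate granule cells, with 189, 178 and 175 CPM against 25.7, 24.9 and 24.5 CPM (2.85). Lratd2 (2.22), the transcriptional repressor Bcl6 (1.29) and Crym, the thyroid hormone binding protein mu-crystallin (0.14), were the other 3. The call of Crym was lost in 8 of the 18 alternative fits, with log2 fold changes of 0.08 to 0.17 and adjusted p of 0.054 to 0.315 there by edgeR or DESeq2. The other 14 called genes were higher in layer V neurons, as were 11 of 13 markers of other cortical layers, whose median was further from 0 (-2.69). Fezf2, the zinc finger factor that directs the subcortical projection fate, had 13.3, 15.8 and 18.3 CPM against 109.7, 112 and 111 CPM (log2 fold change -2.81, SE 0.10, adjusted p = 1.2e-07). Deptor, an inhibitor of mTOR, had 4.43, 6.58 and 13.0 CPM against 115, 112 and 120.4 CPM (-3.84). S100a10, an annexin partner that marks corticostriatal layer V cells, had 2.26, 4.33 and 4.51 CPM against 47.2, 47.6 and 45.1 CPM (-3.67). In all 3 the groups were well apart. Qrfpr (-3.50), Sulf2 (-3.11), Hsd11b1 (-3.08), Ldb2 (-2.60), Chst8 (-1.91), the ETS factor Etv1 (-1.64), Npr3 (-1.47), Tcerg1l (-0.74), Pcp4 (-0.73) and Parm1 (-0.39) were lower in dentate granule cells as well. Rbp4, the gene whose regulatory sequence drives the Cre in both groups, had 8.87, 9.71 and 10.6 CPM against 21.3, 22.4 and 22.2 CPM (-1.18). Tshz2, a zinc finger gene of layer V cells that stay within the cortex, had 15.3, 33.4 and 92.3 CPM against 52.1, 56.4 and 53.9 CPM, and the groups overlapped because dentate replicate 3 lay above every layer V library and replicates 1 and 2 below (adjusted p = 0.74 by edgeR). Without dentate replicate 3 its log2 fold change was -1.14 (adjusted p = 0.00385 by edgeR), and without dentate replicate 1 it was 0.24 (adjusted p = 0.538).

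**Figure D1:**
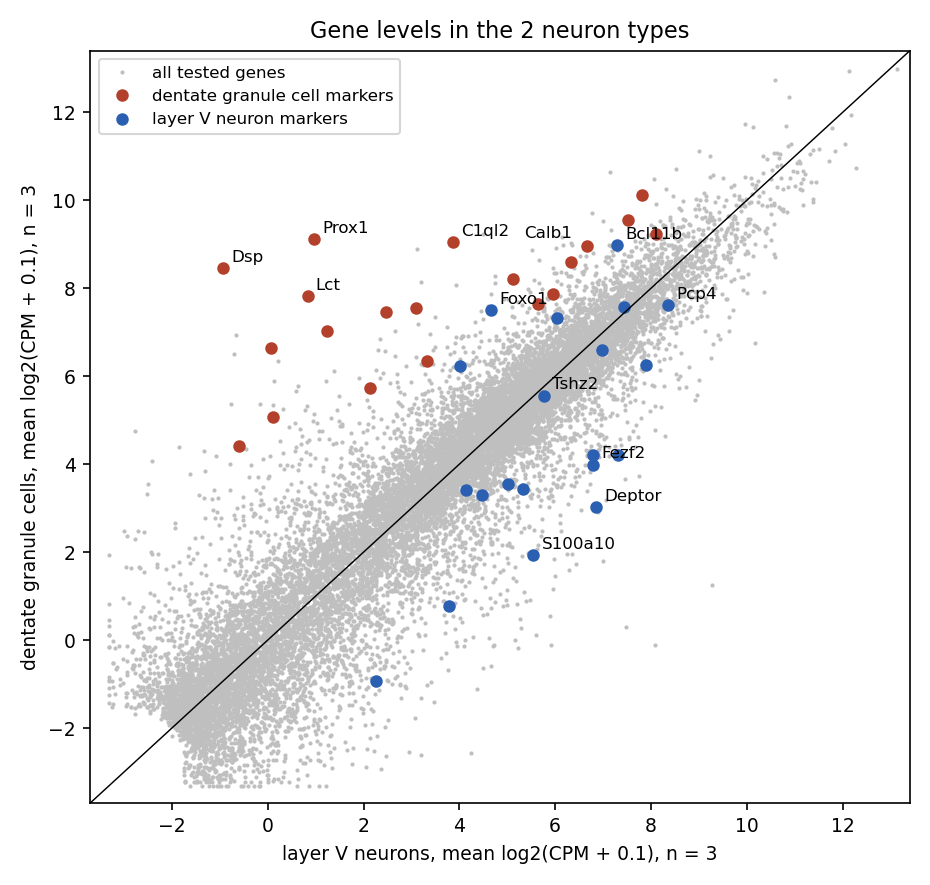
Mean gene levels of the 3 layer V neuron libraries (horizontal axis) and the 3 dentate granule cell libraries (vertical axis), each as log2(CPM + 0.1), for 17423 tested genes in grey, with equality as a line. The 20 dentate granule cell markers in red all lie above the line, while of the 20 layer V markers in blue 5 called genes, Bcl11b and Foxo1 among them, lie above it.

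Beyond the lists, 61 genes with at least 10 CPM in dentate granule cells were at least 16-fold higher there, and 45 genes with at least 10 CPM in layer V neurons were at least 16-fold higher in those. Of protein-coding genes with at least 10 CPM in dentate granule cells, the 12 with the largest fold change toward that type included Dsp, Prox1, Lct, Il16 and Maml2 from the marker list. Rtl3, a gene of retrotransposon origin at chrX:106837082-106840644, had 25.4, 28.2 and 27.6 CPM against 0.0558, 0.0304 and 0.0560 CPM (log2 fold change 9.12, SE 0.14, adjusted p = 4.7e-09). Tspan18, a tetraspanin, had 121, 136 and 112 CPM against 0.427, 0.532 and 0.634 CPM (7.84). St18, a zinc finger transcription factor, had 95.8, 88.7 and 88.1 CPM against 0.427, 0.532 and 0.579 CPM (7.46). In these 3 the dentate libraries lay close together and the layer V libraries were at or under 0.634 CPM. The secreted phospholipase Pla2g2f (7.56), the syncytin gene Syna (5.89) and the transcription factor Cebpd (5.89) were also among the 12. Some of these genes were shared with another granule cell. St18 had a mean of 165 TPM in the cerebellar granule cell libraries against 50.9 TPM in dentate granule cells, and Il16 had 205 against 57.1 TPM. Dsp, Lct, Rtl3, Pla2g2f and Syna had under 0.9 TPM in each of the cerebellar granule cell, interneuron, astrocyte and microglia groups.

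Among protein-coding genes with at least 10 CPM in layer V neurons, the 12 with the largest fold change toward that type were of other kinds. Dkkl1, a secreted relative of the Dickkopf Wnt inhibitors, had 0.164, 0.522 and 1.79 CPM against 59.2, 63.1 and 58.3 CPM (log2 fold change -6.15, SE 0.42, adjusted p = 3e-06). Adra1b, an adrenergic receptor gene, had 0.949, 0.887 and 1.13 CPM against 50.5, 47.9 and 46.4 CPM (-5.59). Trh, which encodes the precursor of thyrotropin-releasing hormone, had 0.529, 2.14 and 0.0566 CPM against 34.9, 32.8 and 39.7 CPM (-5.47). The layer V libraries lay within 32.8 to 63.1 CPM for these genes and no dentate library exceeded 2.14 CPM. Single dentate libraries moved the values of Dkkl1, which was -7.56 without dentate replicate 3, and of Trh, which was -6.91 without dentate replicate 2 and -4.85 without dentate replicate 3. Genes best known from muscle, Tnnc1 (troponin C, -5.56) and Myl4 (a myosin light chain, -5.42), had mean levels of 123 and 149.8 TPM in layer V neurons against 3.31 and 4.25 TPM in dentate granule cells. Also among the 12 were Dtl (-5.81), Susd5 (-5.49), the retinoic acid degrading enzyme Cyp26b1 (-5.32), the opsin Opn3 (-5.31), the heparan sulfate sulfotransferase Hs3st2 (-5.22) and Coch (-5.10).

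**Figure D2:**
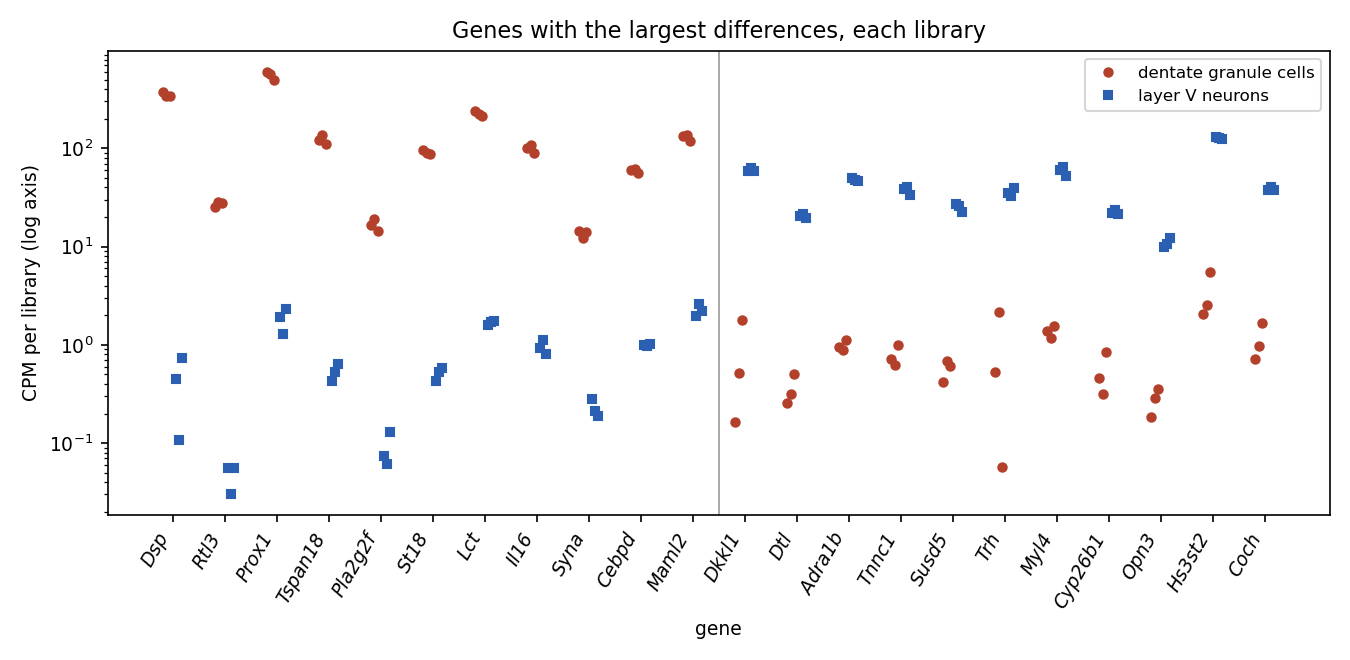
CPM on a log axis in each library for 11 of the 12 genes with the largest fold change toward dentate granule cells (left of the line) and 11 of the 12 toward layer V neurons (right), 3 dentate granule cell libraries as red circles and 3 layer V libraries as blue squares. The genes were ranked among protein-coding genes with at least 10 CPM in the higher type. The types do not overlap for any of the 22 genes, which the choice of genes required, and the lowest values are the 3 layer V libraries for Rtl3, at most 0.056 CPM.

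Of 45 transcription factors of the forebrain, 16 were higher in dentate granule cells and 26 in layer V neurons (median log2 fold change -0.51). The shares of all tested genes were 35.6% and 36.0%. Zbtb20, a repressor that specifies hippocampal neurons, had 669.6, 579 and 549 CPM against 21.1, 22.0 and 23.7 CPM (log2 fold change 4.75, SE 0.089, adjusted p = 7.4e-09). Emx2, a homeobox gene needed for the dentate gyrus to form, had 15.5, 13.8 and 14.7 CPM against 1.13, 1.29 and 1.08 CPM (3.64), and Zfp536 (3.19) and Zfpm2 (2.78) followed. The factors highest in layer V neurons are known from the neocortex. Rorb, a nuclear receptor best known from layer IV, had 1.55, 2.43 and 2.43 CPM against 61.1, 62.5 and 62.0 CPM (log2 fold change -4.87, SE 0.13, adjusted p = 2.9e-08). The POU factor gene Pou3f2 had 1.26, 1.04 and 1.60 CPM against 36.6, 38.5 and 40.2 CPM (-4.86). The groups did not overlap for any of these genes. The nuclear factor Tox differed by -3.45. Among the most abundant members per length, Lmo4, a LIM-domain cofactor, had 238 TPM in dentate granule cells against 613 TPM in layer V neurons, and Zbtb18 had 519.6 against 271 TPM.

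Genes that both excitatory types share still differed in amount, 13 of 20 being higher in layer V neurons and 4 in dentate granule cells (median -0.69). The 4 were Camk2a and Camk2b, the main subunits of the synaptic kinase CaMKII, the basic helix-loop-helix factor Neurod2, and the scaffold Baiap2. Camk2b had 3382, 3243 and 3109 CPM against 1149, 1091 and 1096 CPM (log2 fold change 1.54, SE 0.045, adjusted p = 4e-08) and Camk2a averaged 7917 ± 200.1 CPM against 4497 ± 8.86 CPM (0.82). Neurod2 differed by 1.27 and Baiap2 by 0.49. Layer V neurons carried more Snap25, a SNARE of synaptic vesicle fusion, at 5519.9 against 2266 TPM (-1.53), and more Nrgn, the calmodulin-binding neurogranin, at 4982 against 3521 TPM (-0.76). The postsynaptic scaffold Homer1 (-1.88), the calcium-dependent kinase Camk4 (-1.54) and Arpp21 (-1.67) were also higher in layer V neurons. Slc17a6, a vesicular glutamate transporter, had 2.54, 6.53 and 13.0 CPM against 23.0, 23.7 and 22.0 CPM (-1.64), again with dentate replicate 3 nearest to layer V (-2.36 without it).

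Glutamate receptor subunits and their partners were nearly balanced in number, 18 of 35 being higher in dentate granule cells and 14 higher in layer V neurons (median 0.49). All tested genes were nearly balanced too, at 35.6% and 36.0%. With the length trend described below removed the counts of the list were 14 and 15 (median 0.14). With counts scaled from TPM and length they were 18 and 15 (median 0.27). Gria1, an AMPA receptor subunit, had 1478, 1452 and 1383 CPM against 276, 252 and 274 CPM (log2 fold change 2.43, SE 0.051, adjusted p = 1.1e-08). Shisa6, an auxiliary AMPA receptor subunit that keeps receptors at the synapse, had 151, 146 and 141 CPM against 8.42, 7.86 and 9.82 CPM (4.07). Both were apart in all libraries, as were the auxiliary subunits Cacng5 (2.77) and Shisa9 (1.43). Toward layer V neurons went the AMPA subunit Gria4 (-2.02), the auxiliary subunit Cacng4 (-2.17) and the olfactomedins Olfm2 (-2.81) and Olfm3 (-2.32). Olfm1, the most abundant of the list per length, had 2806 against 1667 TPM, and the AMPA receptor export factor Cnih2 had 546 against 242 TPM. All 7 metabotropic glutamate receptors tested were called, though Grm7 lost its call in 3 of the 18 alternative fits (without dentate replicate 1 or layer V replicate 2, and in the fit of 18 libraries). Among them, Grm2 (1.49) and Grm5 (0.80) were higher in dentate granule cells and Grm8 (-2.45), Grm4 (-2.38), Grm3 (-2.12) and Grm7 (-0.20) in layer V neurons. Grm2, a presynaptic receptor of mossy fibres, had 317, 360.0 and 293 CPM against 119, 126 and 100.1 CPM.

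Among GABA receptor genes 10 of 19 were higher in dentate granule cells and 7 higher in layer V neurons (median 0.15). Of all tested genes, 35.6% and 36.0% were called in these directions. Without dentate replicate 3 the median of the list was 0.24. With 1 library left out at a time its count for dentate granule cells ranged from 7 to 11. Kctd12, an auxiliary subunit of GABA-B receptors, had 263, 253 and 237 CPM against 43.2, 40.0 and 46.7 CPM (log2 fold change 2.54, SE 0.067, adjusted p = 2.6e-08). The GABA-A subunits Gabra5 (1.36) and Gabrb2 (1.17) were higher in dentate granule cells, while Gabra3 (-2.55), Gabrg1 (-2.32), Gabrg3 (-1.73) and the auxiliary subunit Kctd8 (-1.50) were higher in layer V neurons. Gabra3 averaged 21.1 ± 4.42 CPM against 123 ± 4.24 CPM. The 2 GABA-B receptor subunits were close, Gabbr1 at -0.18 and Gabbr2 at 0.15, and with the length trend described below removed Gabbr2 turned to -0.27. The call of Gabbr2 was lost in 5 of the 18 alternative fits.

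Ion channel genes were called in both directions, against 35.6% of all tested genes toward dentate granule cells and 36.0% toward layer V neurons. Potassium channel genes were higher in dentate granule cells for 26 of 61 and in layer V neurons for 29 (median -0.061), and sodium, calcium, HCN and TRP channel genes for 16 and 20 of 38 (median -0.24). With the length trend removed these were 22 and 30 (median -0.36) and 11 and 22 (median -0.48), and without layer V replicate 3 the potassium channel median was -0.17. Kcng2, a modifying subunit, had 106, 109 and 89.3 CPM against 13.9, 13.1 and 12.5 CPM (log2 fold change 2.94, SE 0.087, adjusted p = 4.1e-08). The inward rectifier Kcnj6 (2.10), the Kv4 partner Kcnip2 (1.71) and its companion Dpp6 (1.21) lay on the same side. Layer V neurons carried more Kcnq5, a subunit of the M current, with 8.01, 10.4 and 16.2 CPM against 106, 107 and 106 CPM (-3.20), and more Dpp10 (-2.95), Kcnk4 (-2.63) and Kcnab3 (-2.61). Dpp6 and Dpp10, both auxiliary subunits of Kv4 channels, thus had opposite signs. Of the other channels, Cacna1h, a T-type calcium channel, had 282, 298 and 254 CPM against 48.8, 50.1 and 51.9 CPM (2.47), and Trpm3 (3.20) and the sodium channel Scn3a (2.10) were also higher in dentate granule cells. Hcn4, a pacemaker channel, was higher in layer V neurons and had 0.675, 1.85 and 0.735 CPM against 15.2, 15.5 and 14.3 CPM (-3.85). The sodium channel subunit Scn4b had 4.82, 6.55 and 26.3 CPM against 185, 165 and 174 CPM (-3.78), where dentate replicate 3 was several-fold above the other dentate libraries (-4.94 without it).

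Calcium-binding proteins were higher in layer V neurons for 15 of 27 and in dentate granule cells for 9 (median -0.25), or for 16 and 8 with the length trend described below removed (median -0.38). Cabp7 had 199, 205 and 212 CPM against 38.6, 37.5 and 35.6 CPM (log2 fold change 2.46, SE 0.048, adjusted p = 8.1e-09), and Cplx2 (1.47), a regulator of vesicle release, and Ppp3ca (0.86), the catalytic subunit of calcineurin, were higher in dentate granule cells alongside Calb1. Cabp1 had 47.5, 50.0 and 67.3 CPM against 267, 271 and 263 CPM (-2.28). Calm2, which encodes calmodulin and was the most abundant of the list per length, had 3735 TPM in dentate granule cells and 6284 TPM in layer V neurons. Near-identical copies, such as those of calmodulin, tubulin and ribosomal protein genes, share reads, and how the estimate divided them is uncertain.

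Receptors for monoamines and acetylcholine leaned toward layer V neurons, 21 of 36 being higher there and 10 in dentate granule cells (median -0.92). Beside Adra1b, the serotonin receptor Htr2a had 1.28, 1.70 and 2.02 CPM against 33.8, 40.2 and 35.9 CPM (log2 fold change -4.46, SE 0.14, adjusted p = 6.2e-08). The histamine receptors Hrh1 (-3.55) and Hrh3 (-2.87) were also higher in layer V neurons, Hrh3 with 21.1, 32.1 and 27.3 CPM against 196, 193 and 199 CPM. Dentate granule cells carried more of the serotonin receptor Htr4, with 25.7, 26.7 and 22.3 CPM against 1.51, 1.58 and 1.53 CPM (log2 fold change 4.01, SE 0.10, adjusted p = 1.8e-08), and of the dopamine receptor Drd5, with 29.2, 30.3 and 27.4 CPM against 2.64, 3.00 and 2.84 CPM (3.35). The nicotinic subunit Chrna7 (1.53) and the serotonin receptor Htr1a (1.00) were higher there too. The muscarinic receptor Chrm1, the most abundant of the list per length, had 187 against 87.5 TPM, and the adrenergic receptor Adra1d had 91.1 against 44.0 TPM. Adra1b and Adra1d, 2 receptors of the same subtype family, therefore had opposite signs.

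Neuropeptides, trophic factors and their receptors were higher in layer V neurons for 34 of 60 and in dentate granule cells for 19 (median -0.69). The ligand PACAP and its receptor were divided between the types. Adcyap1, its gene, had 1.24, 4.10 and 2.56 CPM against 64.3, 69.9 and 56.5 CPM (log2 fold change -4.65, SE 0.30, adjusted p = 2e-06), and Adcyap1r1, that of the receptor, had 341, 336 and 312 CPM against 73.7, 66.6 and 67.6 CPM (log2 fold change 2.25, SE 0.056, adjusted p = 1.9e-08). The groups did not overlap for either. Pdyn, the dynorphin precursor of mossy fibres, had 87.1, 91.6 and 79.7 CPM against 7.06, 9.29 and 8.92 CPM (3.35), the neurotrophin Ntf3 had 29.2, 26.2 and 24.9 CPM against 2.10, 1.55 and 2.37 CPM (3.75), and the neuropeptide Y receptor Npy2r differed by 3.70. Toward layer V neurons, the cholecystokinin precursor Cck had 168, 219 and 260.3 CPM against 790.3, 794 and 722 CPM (-1.83) and its receptor Cckbr had 1.97, 4.23 and 4.35 CPM against 62.8, 60.6 and 66.3 CPM (-4.19). Vgf (-2.59), an activity-regulated secreted protein, and the peptide-processing enzyme Cpe (-1.42) followed the same direction.

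Hormone receptors and enzymes, a list that also held the orphan receptor Rorb, were higher in layer V neurons for 18 of 30 and in dentate granule cells for 5 (median -0.69). Nr3c2, the mineralocorticoid receptor, went the other way, with 294, 299 and 237 CPM against 26.1, 25.7 and 28.7 CPM (log2 fold change 3.37, SE 0.10, adjusted p = 3.9e-08), and so did Fkbp5, a cochaperone of steroid receptors, with 185, 209 and 179.7 CPM against 51.0, 56.7 and 55.4 CPM (1.82). Hsd11b1, the enzyme that regenerates active glucocorticoid, was higher in layer V neurons, as were Rxrg (-2.18) and Nr4a1 (-2.59). The thyroid hormone receptor Thra, the most abundant per length, had 980.4 against 609.6 TPM (0.39), and Rxra differed by 0.36, or by 0.05 with the length trend removed (adjusted p = 0.476 by edgeR).

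Of second messenger enzymes, 29 of 69 were higher in dentate granule cells and 32 higher in layer V neurons (median -0.11), or 24 and 36 with the length trend described below removed (median -0.34). Shares over all tested genes were 35.6% and 36.0%. Adcy1, a calcium-stimulated adenylyl cyclase, had 2311, 2250.0 and 2169 CPM against 517, 507 and 504 CPM (log2 fold change 2.14, SE 0.04, adjusted p = 7.2e-09). The diacylglycerol kinases Dgkh (2.63), Dgkg (2.37) and Dgki (2.17) were higher in dentate granule cells. Layer V neurons carried more of the G-protein regulator Rgs20 (-4.08), the phospholipase Plcb4 (-3.48), the kinases Camk1 (-2.59) and Camk1g (-2.85), and, most abundantly, Prkcb, a protein kinase C, with 1116 against 336 TPM, and Prkar1b, a regulatory subunit of protein kinase A, with 1048 against 351 TPM. In the Wnt, Notch and BMP list 27 of 68 were higher in dentate granule cells and 28 in layer V neurons (median 0.18). All tested genes were at 35.6% and 36.0%. The median of the list was 0.11 without layer V replicate 2 and 0.38 over the genes with at least 1 CPM in 3 libraries. With the length trend removed the list had a median of 0.066 and counts of 23 and 30. Of its genes with a mean of at least 5 CPM in the higher type, the largest differences toward dentate granule cells were those of the Notch ligand Jag1, at 17.1, 16.3 and 14.2 CPM against 0.409, 0.380 and 0.653 CPM (5.05), the receptors Notch2 (3.83) and Notch1 (2.98) and the Wnt inhibitor Apcdd1 (2.91). The Notch genes of the list had no common direction, since the target genes Hes5 (-1.98), Hes1 (-0.54) and Hey1 (-0.47), all 3 named after their values were seen, were higher in layer V neurons. The call of Hes1 was lost with the length trend removed (-0.33, adjusted p = 0.0598 by edgeR). Rspo1 (-4.36), Bmp2 (-3.60, or -4.31 without dentate replicate 3) and Dkk3 (-3.08) stood with Dkkl1 on the layer V side, while Wnt7b was higher in dentate granule cells (0.66).

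Genes for synaptic adhesion were higher in layer V neurons for 41 of 78 and in dentate granule cells for 29 (median -0.28), and axon guidance genes for 32 and 35 of 78 (median 0.022). In the same order, the shares of all tested genes were 36.0% and 35.6%. With the length trend described below removed, the adhesion counts were 47 and 28 (median -0.56) and the guidance counts 37 and 33 (median -0.097), and the guidance median, near 0, changed sign in 3 other alternatives too. Sema5a, a semaphorin that limits dendritic spines of granule cells, had 521, 484 and 426 CPM against 9.13, 7.45 and 9.13 CPM (log2 fold change 5.80, SE 0.11, adjusted p = 8.1e-09). The protocadherin Pcdh20 had 296, 270.5 and 278 CPM against 8.55, 8.73 and 10.2 CPM (4.94), and the repellent ligand Slit1 (3.34), the semaphorin receptor Plxna4 (2.70), Sema5b (2.55) and the cadherin Cdh9 of mossy fibre synapses (2.89) were higher in dentate granule cells. Nptx1, a secreted pentraxin that clusters AMPA receptors, had 602 against 110.2 TPM (2.19). On the layer V side were the synaptic organizer Cbln2, with 0.748, 1.59 and 2.96 CPM against 40.8, 45.1 and 47.8 CPM (-4.65), the contactin Cntn6 (-3.81), the ephrin receptor Ephb3 (-3.32), the cadherins Cdh6 (-3.05) and Cdh7 (-2.84), Adgrl2 (-3.05), Sema3a (-3.01), Nptxr (-0.75) and Clstn1 (-1.36). Without dentate replicate 3 Cbln2 was at -5.30 and Cdh6 at -3.73. Gap43, a protein of growing and plastic axon endings, had 49.2, 84.0 and 89.8 CPM against 458, 443 and 438 CPM (-2.59).

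Cytoskeletal genes were higher in layer V neurons for 27 of 50 and in dentate granule cells for 18 (median -0.23), and extracellular matrix genes for 21 and 23 of 55 (median 0.029). In the same order, all tested genes had shares of 36.0% and 35.6%. With the length trend described below removed, the cytoskeletal counts were 31 and 9 (median -0.50) and the matrix counts 24 and 22 (median -0.28). The matrix median was also below 0 in 4 other alternatives, -0.04 without dentate replicate 1 among them, so no direction is given for that list. The microtubule regulator Stmn1, the most abundant per length, had 2801 TPM in layer V neurons against 620.2 TPM in dentate granule cells (log2 fold change -2.43, SE 0.078, adjusted p = 6.3e-08), and Stmn2 (-2.46) and the neuronal tubulin Tubb3 (-2.20) followed. Tubb2b had 209.7, 252 and 185 CPM against 34.3, 28.9 and 33.1 CPM (2.75), opposite in sign to Tubb3. The spectrins Sptb (2.18) and Sptan1 (1.82) were higher in dentate granule cells. In the matrix, the protease Adamts1 (3.71), the heparan sulfate enzyme Ndst4 (2.68), the glypican Gpc4 (2.58) and Adamts3 (2.50) were higher in dentate granule cells, and the proteoglycan Spock1 (-2.97) and the perineuronal net link protein Hapln4 (-2.77) in layer V neurons. Sparcl1 had 853 against 380.0 TPM.

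Immediate early genes, which neurons switch on within minutes of activity, were higher in layer V neurons for 21 of 31 and in dentate granule cells for 9 (median -0.96). Egr1 had 39.1, 44.5 and 47.2 CPM in the 3 dentate granule cell libraries and 583, 473 and 386 CPM in the 3 layer V libraries (log2 fold change -3.46, SE 0.15, adjusted p = 2.7e-07). Fos had 2.92, 4.52 and 3.58 CPM against 51.4, 38.9 and 28.0 CPM (-3.44), and the phosphatase gene Dusp6 had 4.84, 5.25 and 6.37 CPM against 78.6, 66.4 and 64.3 CPM (-3.67). The layer V libraries were spread for Egr1 and Fos, yet all 3 lay far above every dentate library. Egr2 differed by -3.48. The 9 genes in the other direction included Jun, with 449, 420.3 and 413 CPM against 94.9, 95.6 and 82.9 CPM (log2 fold change 2.23, SE 0.065, adjusted p = 3.9e-08), Btg2 (2.24), Dusp4 (2.13) and Ptgs2 (1.40). Jund had 246 against 339 TPM.

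Stage genes of adult neurogenesis were higher in dentate granule cells for 10 of 27 and in layer V neurons for 9 (median -0.0019). These counts were near the shares of all tested genes, 35.6% and 36.0%. Neurod1, a factor of maturing granule neurons, had 47.2, 46.4 and 44.6 CPM against 13.5, 14.8 and 14.3 CPM (log2 fold change 1.70, SE 0.054, adjusted p = 6e-08), and Sox11 had 43.0, 42.2 and 39.6 CPM against 16.2, 17.7 and 17.2 CPM (1.29). Fxyd7, a modulator of the sodium pump (-2.77), was higher in layer V neurons.

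Genes of the respiratory chain differed by the genome that encodes them. Of 79 nuclear subunits tested, 72 were higher in layer V neurons, 0 were higher in dentate granule cells and 7 were not called (median -0.62). The count for dentate granule cells was also 0 at an unadjusted p of at most 0.05 in edgeR and with DESeq2. The differences were mostly small. At least 2-fold were those of Cox7b and of Cox6a2 (-3.87) and Cox7a1 (-2.31), muscle forms of cytochrome c oxidase subunits that had means under 3 CPM in both types and were named after their values were seen. Cox7b, a subunit of cytochrome c oxidase, had 69.3, 76.0 and 84.6 CPM against 151, 156 and 161 CPM (log2 fold change -1.02, SE 0.071, adjusted p = 3.1e-06), and Cox6b1 (-0.96), Ndufc2 (-0.94) and Atp5k (-0.94) were close to it. The groups did not overlap in these 4 genes. Cox6c had 1322 against 1607 TPM and Atp5b, the ATP synthase beta subunit, 1642 against 1751 TPM (-0.13). The call of Atp5b was lost in 5 of the 18 alternative fits and its sign turned in another, with the length trend removed (0.030). Of 13 mitochondrially encoded genes, 9 were higher in dentate granule cells and 1 in layer V neurons (median 0.66). The list summed to 2906, 2172 and 3899 CPM in dentate granule cells and 1454, 1773 and 1874 CPM in layer V neurons, so that every dentate library lay above every layer V library. The largest difference toward dentate granule cells was that of mt-Nd5, a subunit of complex I, with 291, 218 and 348 CPM against 78.3, 94.3 and 99.4 CPM (log2 fold change 1.66, SE 0.16, adjusted p = 2.6e-05), and mt-Nd4l (1.49), mt-Co2 (1.13), mt-Cytb (0.93) and mt-Co1 (0.66) were also higher. The exception was mt-Nd3, named after its values were seen, with means of 0.392 CPM against 2.58 CPM (-2.63, or -3.67 without dentate replicate 3) and no call with DESeq2. Mitochondrial transcripts are translated on mitochondrial ribosomes, which do not carry the tag, and how they came into the pull-down was not tested.

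Transcript length moved with the differences. The median log2 fold change was -0.35 over the 337 genes with an effective length of at most 300 bases, -0.31 over 556 genes of 300 to 500 bases, -0.12 over 4727 genes of 1000 to 2000 bases, 0.20 over 3975 genes of 3000 to 5000 bases and 0.42 over 1828 genes above 5000 bases. Genes of at most 500 bases held 1.48%, 1.51% and 1.61% of the tested counts in the dentate libraries and 2.11%, 2.26% and 2.24% in the layer V libraries. Genes above 5000 bases held 21.3%, 20.9% and 20.8% in the dentate libraries and 16.04%, 15.84% and 16.02% in the layer V libraries. The types were apart at both ends of the length range, and whether this belongs to the cells or to the libraries was not tested. The nuclear respiratory chain genes are short, with a median effective length of 463 bases, and the 1563 tested genes in the middle range of their lengths had a median log2 fold change of -0.32. In a fit with the length trend of each library taken out, an alternative chosen after seeing the data, 59 of the 79 were higher in layer V neurons, all of them among the 72, and 4 were higher in dentate granule cells (median -0.31).

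**Figure D3:**
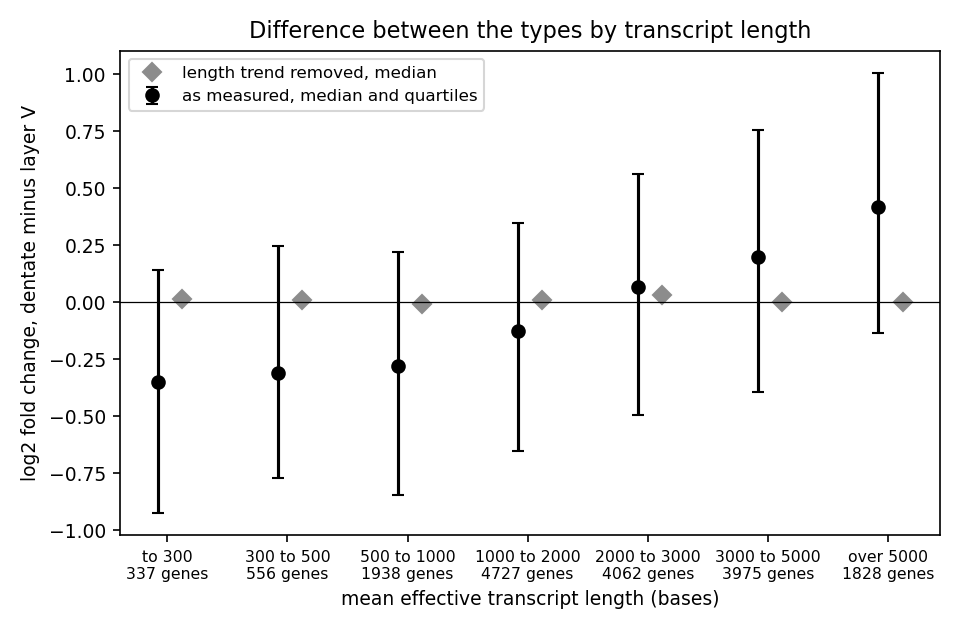
Log2 fold change of dentate granule cells minus layer V neurons in 7 classes of mean effective transcript length, in bases, with the number of genes under each class; black points are medians and bars the quartiles, and grey diamonds the medians after the length trend of each library was removed. The median goes from -0.35 in the shortest class to 0.42 in the longest.

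The direction of cytosolic ribosomal protein genes depended on this trend. As measured, 38 of 82 were higher in layer V neurons and 11 in dentate granule cells (median -0.13), with none at 2-fold. With the length trend removed, 3 were higher in layer V neurons and 43 in dentate granule cells (median 0.18), so no direction is given for the list. Rpl41 (-0.67), Rpl38 (-0.67), Rpl22l1 (-0.56), a paralog of Rpl22, and Rpl39 (-0.48) had the lowest values and Rpl5 (0.42), Rpl3 (0.38), Rpl22 (0.34) and Rps15a (0.34) the highest. Rpl22, the gene of the tagged protein, had 66.9, 69.7 and 65.2 CPM against 52.0, 53.9 and 53.2 CPM, and from counts corrected for effective length its log2 fold change was -0.0027 and that of Rps15a -0.09. The most abundant per length were Rps24, at 916 against 1010.0 TPM, and Rpl19, at 847 against 917 TPM.

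The study these libraries belong to concerns tRNA in neurons, and genes of tRNA supply and ribosome rescue were higher in dentate granule cells for 23 of 42 and in layer V neurons for 10 (median 0.18), with 1 difference of at least 2-fold. That was Polr3k, a subunit of RNA polymerase III, with 23.6, 24.1 and 24.6 CPM against 51.1, 51.5 and 51.2 CPM (log2 fold change -1.09, SE 0.043, adjusted p = 1.7e-07). The polymerase subunit Polr3d (-0.67) was also higher in layer V neurons. Gtf3c1, a subunit of the factor TFIIIC that recognizes the promoters within tRNA genes, went the other way. It had 181, 174 and 164 CPM against 88.0, 89.4 and 94.1 CPM (0.94). The stress kinases Eif2ak4 (0.80) and Map3k20 (0.97), which sense stalled or colliding ribosomes, and Gcn1 (0.93), which activates the first of them, were higher in dentate granule cells. The elongation factor genes differed in opposite directions, Eef1a1 with 2848 against 1655 TPM (0.52) and Eef1a2, the form of mature neurons, with 1236 against 1661 TPM (-0.69).

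**Figure D4:**
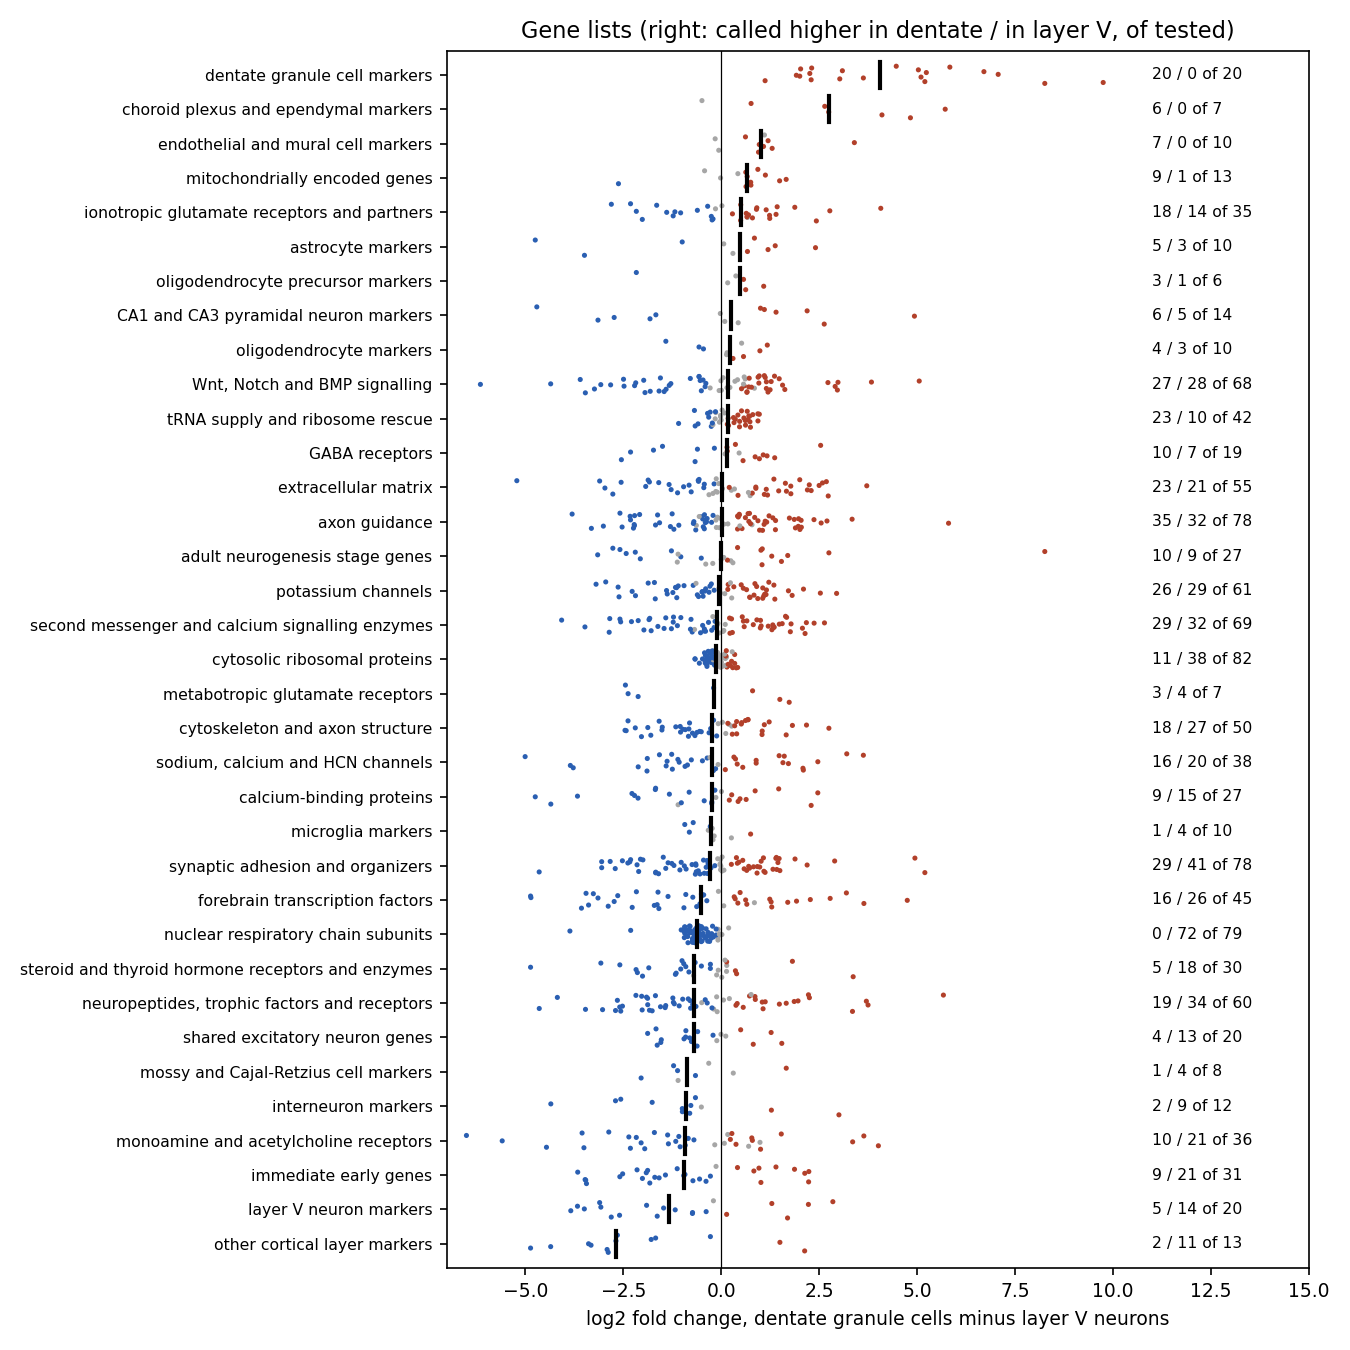
Log2 fold change of dentate granule cells minus layer V neurons for the tested genes of 35 lists, 1 point a gene, red where called higher in dentate granule cells, blue where called higher in layer V neurons and grey where not called; black bars are list medians, and the counts called in each direction stand at the right. The dentate granule cell markers have the highest median, 4.05, and the markers of other cortical layers the lowest, -2.69.

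Markers of other cells were measured because the pull-down may carry their RNA. Interneuron markers were higher in layer V neurons for 9 of 12 and in dentate granule cells for 2 (median -0.90). Gad1, which encodes a GABA-synthesizing enzyme, went toward dentate granule cells, with 199, 197 and 181 CPM in the 3 dentate granule cell libraries and 26.9, 22.9 and 22.3 CPM in the 3 layer V libraries (log2 fold change 3.00, SE 0.079, adjusted p = 2.5e-08). Gad2, the gene of the other GABA-synthesizing enzyme, had 8.12, 10.3 and 14.0 CPM against 19.9, 18.4 and 18.3 CPM (-0.81) and Slc32a1, the vesicular GABA transporter, 3.72, 5.87 and 7.58 CPM against 12.0, 11.6 and 10.6 CPM (-0.99). Gad2 was named after its values were seen. Gad1 and Gad2 had 149 and 4.73 TPM in dentate granule cells and 2029 and 569.7 TPM in the interneuron libraries of the series, which come from another Cre line and batch. Gad1 was thus several-fold above layer V neurons while Gad2 and Slc32a1 were below them in every library. Lhx6, a factor of interneurons from the medial ganglionic eminence that was likewise named after its values were seen, had 1.73, 2.77 and 3.28 CPM against 4.33, 4.73 and 4.24 CPM (-0.78). Pvalb (-4.35), Npy (-2.57) and Sst (-1.76), which mark classes of interneurons, were higher in layer V neurons, Sst being the most abundant per length, at 256 against 91.0 TPM. The summed level of the list was 301, 307 and 319 CPM in dentate granule cells and 227, 222 and 205 CPM in layer V neurons. Gad1 alone, in TMM-scaled CPM unlike the sums, was at 199, 197 and 181 CPM in dentate granule cells and 26.9, 22.9 and 22.3 CPM in layer V neurons. The direction of the sum thus rests on that gene.

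Glial markers had no common direction. Of 10 astrocyte markers 5 were higher in dentate granule cells and 3 in layer V neurons. Gfap, the intermediate filament of astrocytes, had 30.4, 14.0 and 42.3 CPM against 5.48, 5.02 and 5.95 CPM (log2 fold change 2.41, SE 0.35, adjusted p = 0.0003), and Aqp4 (1.19), Fgfr3 (0.85) and Slc1a3 (0.67) went with it. S100b had 1.97, 3.16 and 3.58 CPM against 80.1, 77.8 and 74.9 CPM (-4.75) and Aldh1l1 3.16, 2.01 and 4.09 CPM against 35.9, 36.2 and 34.3 CPM (-3.49), both far higher in layer V neurons, and Aldoc differed by -0.998. The summed astrocyte list held 111, 76.0 and 169 CPM in dentate granule cells and 214, 213 and 199 CPM in layer V neurons, against a mean of 19118 CPM in the astrocyte libraries. Oligodendrocyte markers were divided 4 to 3 of 10, against 35.6% and 36.0% of all tested genes. Mag (0.99) and Mbp (0.30) were higher in dentate granule cells and Cldn11 (-0.57) and Cnp (-0.46) in layer V neurons. The oligodendrocyte list summed to 434, 451 and 553 CPM in dentate granule cells and 383, 392 and 367 CPM in layer V neurons. Of 6 precursor markers 3 were higher in dentate granule cells and 1, Cacng4, in layer V neurons, with Sox10 at 0.57 and a call that 9 of the 18 alternative fits lost. The count for dentate granule cells was 1 without layer V replicate 1 or 3, with the replicate number as a block and with the length trend removed. Their sum was 18.1, 17.2 and 22.3 CPM in dentate granule cells and 30.1, 33.5 and 30.1 CPM in layer V neurons. Microglial markers summed to 20.3, 18.8 and 22.7 CPM in dentate granule cells and 21.8, 24.9 and 22.5 CPM in layer V neurons, against 42232 CPM in the microglia libraries, with 4 of 10 higher in layer V neurons, 1 in dentate granule cells and 2 under 1 CPM in all 6 libraries. The count for layer V neurons was 2 without layer V replicate 2, with the replicate block, with the length trend removed, with batch 2 libraries and with a filter at 1 CPM, and without dentate replicate 2 the count for dentate granule cells was 2. Aif1, which encodes an actin-binding protein of microglia, differed by -0.93.

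Vascular and choroid plexus markers went toward dentate granule cells. Endothelial and mural markers were higher there for 7 of 10 and in layer V neurons for 0 by edgeR, a count that was also 0 at an unadjusted p of at most 0.05 and with DESeq2. Their sum was 83.6, 38.4 and 55.4 CPM in dentate granule cells and 34.5, 37.6 and 33.7 CPM in layer V neurons, so that dentate replicate 1 was highest and dentate replicate 2 was close to layer V replicate 2. Without dentate replicate 1, 4 of the 10 were higher in dentate granule cells and 1 in layer V neurons, and without layer V replicate 1, 2 or 3 the count for dentate granule cells was 3, 4 or 3. Kdr, a receptor for vascular endothelial growth factor, had 9.16, 7.52 and 8.39 CPM against 0.892, 0.624 and 0.877 CPM (log2 fold change 3.40, SE 0.17, adjusted p = 4.6e-07), Flt1 had 21.1, 7.47 and 11.7 CPM against 5.43, 5.95 and 5.06 CPM (1.30) and Slco1a4 had 9.78, 2.64 and 5.50 CPM against 2.82, 2.80 and 2.95 CPM (1.08). For Slco1a4 the groups overlapped, and 5 of the 18 alternative fits lost its call. Ly6c1, the most abundant of the list per length, differed by 0.97. Its call was lost in 2 of the 18 alternative fits, where the log2 fold changes were 0.85 and 0.95. Rgs5, a pericyte marker, had 18.9, 9.29 and 12.6 CPM against 15.0, 16.5 and 14.1 CPM and was not called (adjusted p = 0.53). Choroid plexus and ependymal markers were higher in dentate granule cells for 6 of 7 and in layer V neurons for 0 by edgeR, also at an unadjusted p of at most 0.05 and with DESeq2 (median 2.74), with a sum of 89.5, 121 and 156 CPM in dentate granule cells and 12.0, 5.31 and 5.30 CPM in layer V neurons. Ttr, transthyretin, the chief product of the choroid plexus and the most abundant of the list per length, had 41.1, 70.0 and 95.4 CPM against 6.91, 0.350 and 0.224 CPM (log2 fold change 4.83, SE 0.87, adjusted p = 0.0011), uneven within both groups, whereas Kl, the hormone co-receptor klotho, had 39.3, 41.5 and 42.9 CPM against 0.874, 0.654 and 0.840 CPM (log2 fold change 5.72, SE 0.10, adjusted p = 6.3e-09) and was even within both. Without layer V replicate 1 the log2 fold change of Ttr was 7.86. The part of carried-over RNA in the differences described here was not tested.

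Markers of neighbouring neurons were also measured. Of 13 markers of other cortical layers 11 were higher in layer V neurons and 2 in dentate granule cells (median -2.69). Lamp5, the most abundant per length, had 327 against 48.6 TPM (-2.92), and Cpne9 (-3.33) and Foxp2 (-3.39) shared the direction of Rorb and Rspo1. The 2 exceptions were Rasgrf2 (2.13) and Tle4 (1.50). Of 14 markers of CA1 and CA3 pyramidal neurons, 6 were higher in dentate granule cells, among them Fibcd1 (2.63), Nptx1, Grik4 (1.40) and Amigo2 (1.10), and 5 in layer V neurons, among them Ccdc3 (-4.71), Pou3f1 (-3.15), Neurod6 (-2.74) and Mpped1 (-1.82). Their sum was 2312, 2319 and 2346 CPM in dentate granule cells and 1339, 1279.5 and 1293 CPM in layer V neurons. Neurod6 had 14.4, 15.3 and 32.9 CPM against 141, 135 and 143 CPM, and Cpne9 had 2.99, 2.51 and 9.65 CPM against 53.9, 52.3 and 49.0 CPM. In both, dentate replicate 3 was at least 2-fold above the other dentate libraries, as it was for Aldoc with 20.5, 19.6 and 48.4 CPM against 63.1, 59.6 and 54.9 CPM, and without this library Cpne9 was at -4.20. Without it 5962 of the 6195 genes higher in dentate granule cells and 5843 of the 6278 higher in layer V neurons were called again in the same direction. Mossy and Cajal-Retzius cell markers were higher in layer V neurons for 4 of 8 and in dentate granule cells for 1, with Reln at -1.12 and Ajap1 at -0.66, and a sum of 67.0, 86.7 and 64.5 CPM in dentate granule cells and 121, 119.8 and 129 CPM in layer V neurons. Calb2, the calretinin gene of mossy cells, had 3.08, 14.9 and 1.36 CPM against 10.6, 9.77 and 19.7 CPM (adjusted p = 0.19), and dentate replicate 2 stood apart from the others. Without that library its log2 fold change was -2.59 (adjusted p = 0.0012 by edgeR).

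Genes on the sex chromosomes were measured as a check of the labels in the 6 libraries. Xist, the RNA that silences an X chromosome and was named after its values were seen, had 188, 39.8 and 0.170 CPM against 13.1, 14.9 and 0.0560 CPM, near 0 in the replicate labelled male of each type. The dentate replicates labelled female differed several-fold from each other. Kdm6a had 34.6, 31.8 and 23.4 CPM against 8.62, 10.01 and 8.40 CPM (log2 fold change 1.73, SE 0.15, adjusted p = 1e-05) and was the 1 gene of the 4 tested on the list that was called. Ddx3x had 297, 277 and 221 CPM against 249, 245 and 203 CPM (adjusted p = 0.18), lower in the male replicate of each type. With sex as a covariate its log2 fold change was 0.18 (adjusted p = 0.00812 by edgeR), with the replicate number as a block 0.18 (adjusted p = 0.012 by edgeR) and without dentate replicate 3 0.33 (adjusted p = 0.00772 by edgeR), and 3 of the 4 genes were called in each of these fits.

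Transcript usage within genes was compared over 9817 genes with at least 2 transcripts in the test. Of these, 1014 (10.3%) passed an adjusted p of at most 0.05 in edgeR's test of transcript usage with a change of at least 20 percentage points in the share of 1 transcript. The 8 genes with the largest change among those with a mean of at least 10 TPM in both types are described. Synpr, a synaptic vesicle protein of mossy fibres, was at 361.2 TPM in dentate granule cells and 58.8 TPM in layer V neurons and was made from different transcripts. Synpr-202 held 0.29%, 0.39% and 0.56% of its counts in the dentate libraries and 71.99%, 77.01% and 71.89% in the layer V libraries (adjusted p = 3.4e-16), Synpr-201 making up 98.1% and 25.2%. The groups were far apart. Osbp2, an oxysterol-binding protein, had similar totals of 93.6 and 119 TPM, yet Osbp2-201 held 86.7%, 83.2% and 79.0% in dentate granule cells and 15.6%, 16.1% and 18.4% in layer V neurons (adjusted p = 1.2e-12), Osbp2-203 taking its place at 78.9%. Acsl4, a fatty acid activating enzyme, was at 35.0 and 32.3 TPM, with Acsl4-201 at 84.8%, 89.4% and 86.6% against 16.9%, 15.2% and 12.3% (adjusted p = 3.7e-05). Itgav, an integrin, was at 15.2 and 15.1 TPM, with Itgav-202 at 0%, 0% and 9.86% against 65.0%, 76.6% and 70.9% (adjusted p = 0.00087). For Acsl4 and Itgav the totals were thus close and the transcripts were not.

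The other 4 genes had totals that differed by less than 3-fold. The mean share of Map4k5-203, of a signalling kinase, was 75.1% in dentate granule cells and 1.60% in layer V neurons, that of Rbm27-203, of an RNA-binding protein, 66.6% and 0.01%, that of Arhgap5-201, of a GTPase activating protein, 66.5% and 3.43%, and that of Nsd3-206, of a histone methyltransferase, 62.1% and 0.52%. Map4k5-203 held 83.5%, 70.5% and 71.3% in the 3 dentate libraries and at most 2.43% in a layer V library, and the groups did not overlap for any of the 4. The shares are kallisto's estimates from reads that several transcripts of a gene can share, so a share near 0 is an estimate and not an absence. They are shares of counts, not divided by transcript length, and the length trend was not taken out of this test. In dentate granule cells Nsd3-206 and Nsd3-208 held 62.1% and 21.6% of the counts, but had 14.2 and 13.6 TPM.

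**Figure D5:**
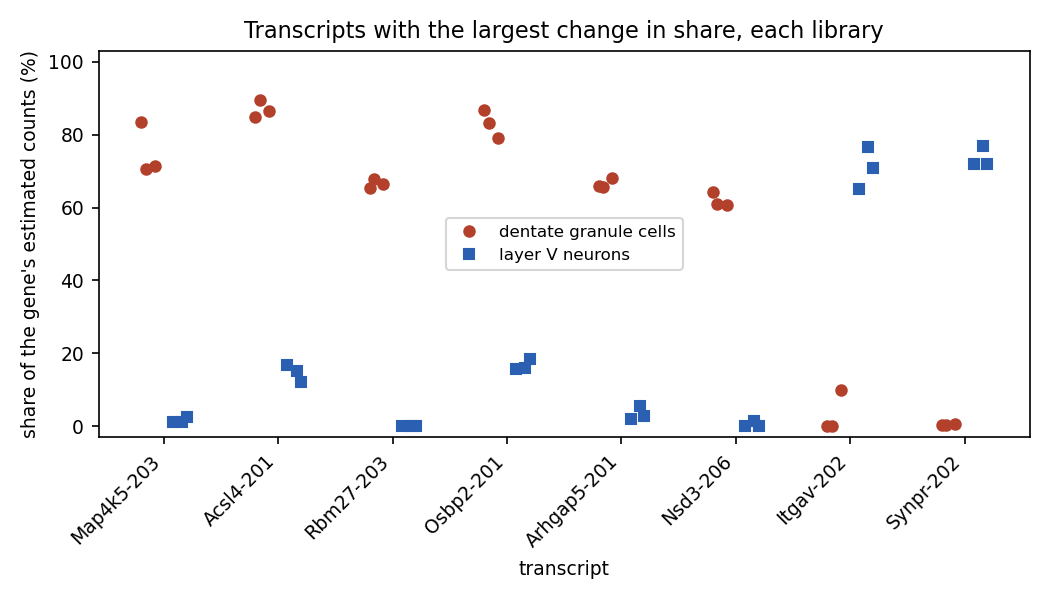
Share of the gene's estimated counts, in percent, held by the transcript with the largest change in each of 8 genes, 3 dentate granule cell libraries as red circles and 3 layer V libraries as blue squares. The first 6 transcripts hold the largest share of counts in dentate granule cells, and Itgav-202 and Synpr-202 the largest in layer V neurons. The shares are not divided by transcript length.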

How the data were processed

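Libraries were made from polyadenylated RNA bound to HA-tagged ribosomes with a stranded kit, whose strand setting in quantification is not given in the sources used here, so antisense and overlapping genes may share reads. The authors trimmed reads with cutadapt 3.5 and deposited, per transcript, the estimated counts, TPM and effective length that kallisto 0.46.2 gave against GENCODE M24. The estimated counts were summed over the 142552 transcripts to 55385 genes, rounded, and 17423 genes passed edgeR's filterByExpr (edgeR 4.0.16, R 4.3.3). The 3 and 3 batch 1 libraries were fitted with TMM normalization and the quasi-likelihood test without covariates, and transcript usage with edgeR's test of transcript shares. On simulated counts with 100 genes changed 2-fold and 100 changed 4-fold of 17105 tested, 91 and 100 were recovered. In the same simulation 16 unchanged genes were called. The simulation changed only those genes, equally in both directions, and held no length trend, while 71.6% of genes were called in the data. Its counts are thus not error rates of this comparison. Effective lengths were averaged over the transcripts of a gene, weighted by TPM, or unweighted where TPM was 0.

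Named genes were the 12 protein-coding genes with the largest fold change in each direction (called, at least 10 CPM in the higher type, no overlap between types), all members of both marker lists, up to 4 called genes a direction of at least 5 CPM and up to 2 most abundant genes of the other lists, and 8 genes of transcript usage. The members and the 36 lists were chosen with earlier results of these data known. Alternatives were other filters and normalizations, DESeq2 1.42.0, counts scaled from TPM and length, sex or replicate number in the fit, batch 2 libraries, 18 libraries in 1 fit, and each replicate left out. The other cell types of the series served only for reference levels. Some genes that the rule chose are not reported here.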

Additional observations from a re-analysis of the deposited data

Results flagged for a closer look

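Xist stood at 12.3 CPM (here without TMM scaling) in the batch 2 library of layer V replicate 1, which is labelled male and entered only the fit with batch 2 libraries, against at most 0.173 CPM in the batch 1 libraries labelled male of both types. The 4 Y-linked genes Ddx3y, Uty, Eif2s3y and Kdm5d summed to 0.951 CPM in it and to 68.8 and 66.9 CPM in the dentate and layer V batch 1 libraries labelled male. The batch 1 library of the same replicate, labelled female, had 12.9 CPM of Xist. This library thus went against its label, and the fits that leave out batch 2 do not rest on it.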

How the results depend on the processing

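Across 18 alternative fits, 277 of the 303 genes chosen by the naming rule or named after their values were seen kept their direction and their side of the threshold in every fit that tested them, 19 lost their call in at least 1 and 5 gained one, among them Tshz2 (-1.14 without dentate replicate 3) and Rgs5 (-0.46 without dentate replicate 1). The sign turned for Tshz2 (0.24 without dentate replicate 1), Rgs5 (0.041 without dentate replicate 2), Gabbr2 (-0.27) and Atp5b (0.030) with the length trend removed, and Rpl22 (-0.0027) and Rps15a (-0.087) with counts scaled from TPM and length. Tested against a 2-fold change directly (glmTreat), 1459 genes were higher in dentate granule cells and 1720 in layer V neurons. At 10 percentage points, 2304 genes differed in transcript usage. Respiratory chain genes higher in dentate granule cells numbered 4 with the length trend removed and 1 with batch 2 libraries. Ribosomal protein genes higher in dentate granule cells numbered 43 with the length trend removed, 7 with counts scaled from TPM and length and 7 with upper quartile normalization, and those higher in layer V neurons 3 with the length trend removed. The length correction was chosen after seeing the data and gave 5891 and 6092 genes higher in dentate granule cells and layer V neurons, 112 of them called in the opposite direction without it. The cause of these shifts was not tested beyond the settings themselves.

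With each replicate left out in turn, 5647 to 6347 genes were higher in dentate granule cells and 5819 to 6313 in layer V neurons, 2191 to 2581 and 2484 to 2763 of them at least 2-fold, and 946 to 1090 differed in transcript usage. Ribosomal protein counts were 6 to 13 and 25 to 47, with 7 without dentate replicate 2 and 6 without layer V replicate 1 or 3 for dentate granule cells, and 25 without dentate replicate 1 for layer V neurons. The medians of the axon guidance and adult neurogenesis lists, both near 0, changed sign in several settings. Same-numbered libraries deviated together only weakly (r = 0.008, -0.053 and 0.098 over genes, or -0.007, -0.062 and 0.059 without X and Y genes). With deviations from means of 3 libraries, these values cannot tell whether the types shared mice. The main fit did not pair the libraries. With the replicate number as a block, 5962 and 6105 genes were called in the 2 directions. DESeq2 called 5839 and 5880.

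With 3 libraries a type, calls measure these libraries. The shallowest library held 38270477 counts, and genes under the count filter were not compared. Tissue, cell type and carried-over RNA cannot be told apart.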
